A study of Mus musculus with 15 samples.

Results

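Wfdc2 and Wfdc3 are genes of the whey acidic protein family. They were followed here by gene symbol in every table that lists them, and they are 2 of the 28269 genes listed in at least 1 table of the series. Both are listed in all 15 libraries. They were chosen because earlier results from these same libraries showed Wfdc2 high in luminal and Wfdc3 high in glandular epithelium, so their levels and differences are given as a description, without a test.

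RNA was sequenced from luminal epithelium (LE), the sheet of cells facing the cavity of the mouse uterus, and from glandular epithelium (GE), the cells of the uterine glands. All samples were labelled day 4. Wild-type mice and mice labelled as overexpressing Notch1 under the title E-OEX gave 3 LE and 3 GE libraries each, and Notch1-overexpressing mice under the title U-OEx gave 3 LE libraries. The titles explain neither abbreviation, and the promoter or cell type that drives the overexpression, the age and strain of the mice and any pooling of animals are not given in the sources used here. The labels do not state that the 3 samples of a group came from separate animals, so each standard deviation and p-value measures the spread between these samples.

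Proteins of this family carry the whey acidic protein core domain, a small fold held together by disulfide bonds. Many are secreted by epithelia, and several inhibit serine proteases or kill bacteria. Wfdc2 encodes a secreted protein of reproductive and airway epithelia that is used in humans as a serum marker of ovarian cancer under the name HE4. Wfdc3 encodes a related protein with several such domains. Notch1 is a receptor whose cleaved intracellular part acts on target genes through the DNA-binding protein RBPJ.

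Both genes lie in the large cluster of family members on mouse chromosome 2 (GRCm38 coordinates, GENCODE M21 gene models). Wfdc2 (ENSMUSG00000017723) spans chr2:164562413-164568510 on the plus strand, with 1140 bases of exon in 7 separate blocks. Wfdc3 (ENSMUSG00000076434) spans chr2:164731180-164745931 on the minus strand, with 2530 bases of exon in 6 blocks. In the RefSeq annotation 162715 bases separate them, and 15 genes lie in that interval, 12 of them protein coding and 9 of them members of the family. No other annotated gene overlaps either of them in the gene models used, so the unstated strandedness of the counting cannot mix their reads with those of a listed antisense gene.

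The 250 bases before the first listed RefSeq start site of each gene (GRCm38.p6) are printed here. Wfdc2 has 2 such windows, and the other one was not searched. The sequences are given because the study concerns Notch1 and both printed windows hold the core letters of the RBPJ motif, GTGGGAA. Both strands were searched, and the capitals mark each match, which reads TTCCCAC because it lies on the opposite strand. The Wfdc2 window is chr2:164562465-164562714 on the plus strand, and the Wfdc3 window is chr2:164743268-164743517 on the minus strand. Both windows lie before the RefSeq start site but inside the longer GENCODE spans given above.
Wfdc2: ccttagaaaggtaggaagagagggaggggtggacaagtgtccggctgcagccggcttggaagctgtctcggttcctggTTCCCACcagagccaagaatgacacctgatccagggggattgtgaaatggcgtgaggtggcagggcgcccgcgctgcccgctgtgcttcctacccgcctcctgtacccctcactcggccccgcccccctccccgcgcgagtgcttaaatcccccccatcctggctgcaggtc
Wfdc3: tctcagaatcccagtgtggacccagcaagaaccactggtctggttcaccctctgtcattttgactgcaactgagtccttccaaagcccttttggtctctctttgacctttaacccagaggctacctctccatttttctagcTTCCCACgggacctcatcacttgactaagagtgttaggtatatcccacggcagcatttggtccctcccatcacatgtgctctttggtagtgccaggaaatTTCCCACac
With the base before the start site counted as -1, the Wfdc2 match covers -172 to -166 and the 2 Wfdc3 matches cover -109 to -103 and -9 to -3. Of 27025 RefSeq windows of this length, the first listed of each gene, 5.41% hold at least 1 such match on either strand. The forkhead letters TGTTTAC (in 3.09% of windows) and the E-box CACGTG (in 6.05%) occur in neither window. The nuclear receptor half-site AGGTCA (in 13.8%) occurs in the Wfdc3 window alone, at -148 to -143, where it overlaps none of the other matches. The base composition of the windows differed, with 64.8% G and C before Wfdc2 and 49.6% before Wfdc3. These matches describe the letters only, and binding was not measured.

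Values are scaled read counts on the deposited scale unless another scale is named. The listed genes held 3818041 to 4797424 reads in a wild-type library, 1980800 to 3494859 in an E-OEX library and 13541644 to 14981505 in a U-OEx library. The wild-type and E-OEX tables list 6414 and 4903 genes selected for at least about a doubling between the epithelia, whereas the U-OEx tables list 27946 genes, so only the last sums approach a library's depth. Notch1 itself is listed in the U-OEx tables alone and could not be used to check the wild-type and E-OEX labels. The epithelium labels were checked on defining markers: the luminal gene Wnt7a was 2958 to 5006 in wild-type LE and 3.79 to 9.52 in wild-type GE, and the gland transcription factor gene Foxa2 was 4.10 to 14.5 and 2227 to 2584. The GE libraries also held stromal markers, and the sum of the 6 that every table lists was 27110 to 78415 in wild-type GE and 300.4 to 6226 in wild-type LE.

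In wild-type mice the genes had opposite patterns, with Wfdc2 at its higher level in LE and Wfdc3 almost restricted to GE. Wfdc2 was 21688, 25991 and 20819.7 in the 3 LE libraries and 1249.6, 1085 and 1069 in the 3 GE libraries. Wfdc3 was 4.14, 8.19 and 4.47 in LE, which corresponds to 4, 8 and 4 reads, and 1861, 1834 and 1916 in GE. The epithelia did not overlap for either gene, and the GE values of Wfdc3 lay close together. The mean of Wfdc2 was 22833 ± 2769 in LE and 1135 ± 99.8 in GE (SD, n = 3 each), and the GE minus LE difference was -4.33 on the log2(value + 1) scale (SE 0.16). For Wfdc3 the means were 5.60 ± 2.25 in LE and 1870.1 ± 41.5 in GE (SD, n = 3 each), with a log2 difference of 8.20 (SE 0.31). As ratios of means, Wfdc2 was 20.1-fold lower and Wfdc3 334-fold higher in GE. The median log2 difference of all 6414 wild-type genes was 1.36, and 97.0% of them, from a list selected for such a difference, passed the limma threshold of 0.05 after adjustment (56.6% with more and 40.5% with less in GE).

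**Figure D1:**
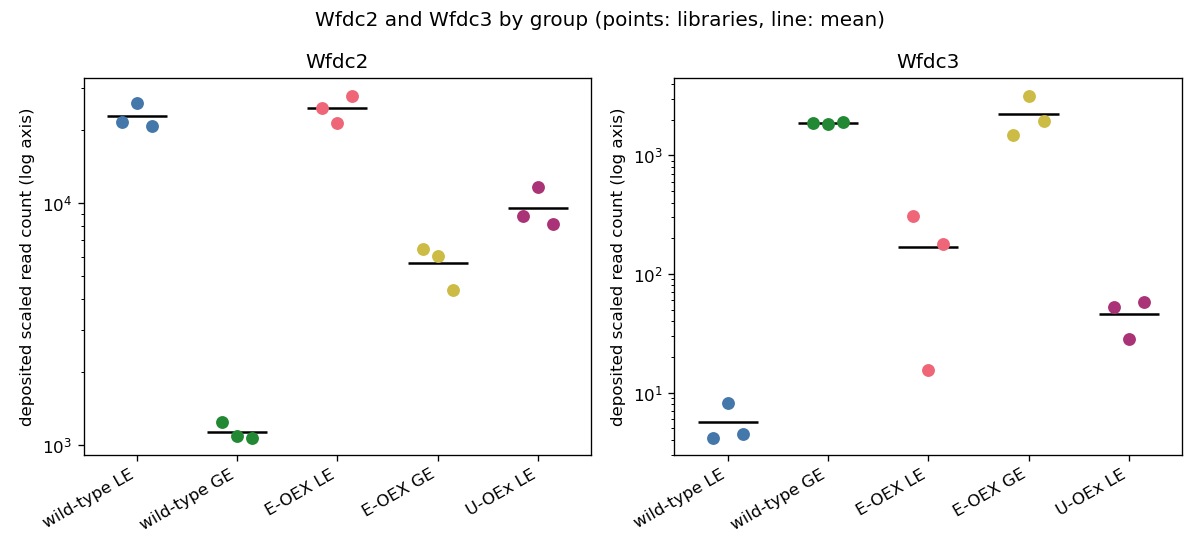
Scaled read counts of Wfdc2 and Wfdc3 on a log axis in each of the 15 libraries, by group; points are libraries and horizontal lines are group means of 3 libraries. Wfdc2 is lowest in wild-type GE (1069 to 1249.6), whereas Wfdc3 is lowest in wild-type LE (4.14 to 8.19).

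The same opposite pattern was seen in E-OEX mice, with a smaller gap for both genes. Wfdc2 was 24607, 21477 and 27805 in E-OEX LE and 6466, 6063 and 4363 in E-OEX GE. Wfdc3 was 311, 15.4 and 180.3 in E-OEX LE (341, 17 and 167 reads) and 1481, 3198 and 1965 in E-OEX GE. Again the epithelia did not overlap, but the Wfdc3 values of E-OEX LE were widely scattered, with replicate 2 far below the other libraries. The means of Wfdc2 were 24629 ± 3164 in LE and 5631 ± 1116 in GE (SD, n = 3 each), a log2 difference of -2.14 (SE 0.28). The means of Wfdc3 were 169 ± 148 in LE and 2215 ± 885 in GE (SD, n = 3 each), a log2 difference of 4.43 (SE 0.99). As ratios of means these are 4.37-fold lower and 13.1-fold higher in GE. The log2 difference of Wfdc3 was 3.15 without E-OEX LE replicate 2 and 5.27 without E-OEX LE replicate 1. In this comparison the median of all 4903 genes was 1.75, and 91.6% passed the limma threshold (61.5% higher and 30.1% lower).

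Between the genotypes, then, the gap between the epithelia differed in opposite senses for the 2 genes. The E-OEX gap minus the wild-type gap was 2.18 on the log2 scale for Wfdc2 (SE 0.35) and -3.77 for Wfdc3 (SE 1.14), each bringing the epithelia closer. The Wfdc2 value came mainly from GE and the Wfdc3 value mainly from LE, as the direct comparisons below show. The Wfdc3 value ranged from -5.05, without E-OEX LE replicate 2, to -2.93, without E-OEX LE replicate 1. Over the 2933 genes of this comparison the median was 0.33, and 10.7% passed the limma threshold (5.83% higher and 4.91% lower).

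**Figure D2:**
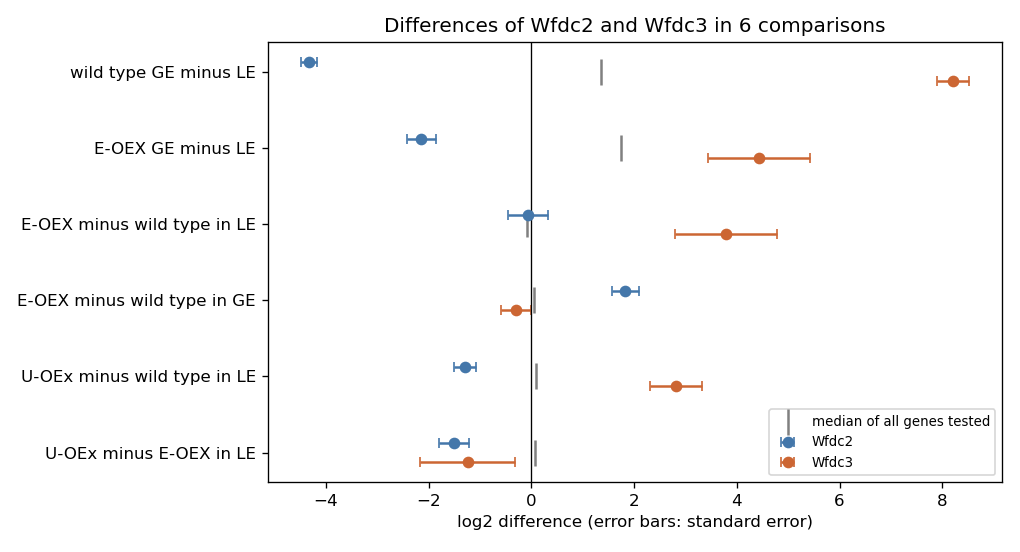
Log2 difference of Wfdc2 and Wfdc3 in 6 comparisons (horizontal axis, log2(value + 1) of the first group minus the second); points are differences of group means over 3 libraries each, and error bars are 1 standard error. Against wild type, Wfdc2 lies at 1.83 in E-OEX GE and -0.065 in E-OEX LE, and Wfdc3 at 3.78 in E-OEX LE and -0.30 in E-OEX GE.

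In luminal epithelium the E-OEX and wild-type libraries held similar amounts of Wfdc2 and different amounts of Wfdc3. The scaling method is not given, and the tables of the genotypes may have been scaled separately. Genotypes were therefore compared on reads recovered from the deposited values and rescaled together. On that scale the Wfdc2 means were 22960 ± 2897 in E-OEX and 23911 ± 1203 in wild type (SD, n = 3 each), a log2 difference of -0.065 (SE 0.38). The sign of this small difference turned on other scales (0.11 as deposited, 0.73 after quantile normalization). Wfdc3 averaged 150.03 ± 126 in E-OEX and 5.77 ± 1.76 in wild-type LE (SD, n = 3 each), a log2 difference of 3.78 (SE 0.99). Every E-OEX LE value of Wfdc3 (15.4 to 311) was above every wild-type value (4.14 to 8.19). The size of the difference depended on 2 libraries: it was 2.9995 without E-OEX LE replicate 1 and 5.003 without E-OEX LE replicate 2. The median of the 2600 genes tested was -0.086.

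Foxa2 was highest in the same E-OEX LE library as Wfdc3. Expressed as a percent of the E-OEX GE mean, Wfdc3 was 14.1, 0.697 and 8.14 in E-OEX LE replicates 1 to 3, and Foxa2 was 18.8, 1.85 and 2.34. The gland cytokine Lif was 61.9, 17.6 and 4.38, and the gland chemokine Cxcl15 was 3.82, 0.662 and 1.11 on the same measure. Replicate 1 was thus the highest for all 4 genes, whereas in replicate 3 Wfdc3 stood above the other 3. Ttr, with 3 reads or fewer in each library, was 7.32, 0 and 13.0. The gland genes Spink1 and Calca had no reads in any E-OEX LE library, and the 6 gland markers that every table lists summed to 111 to 1009.6 in E-OEX LE, 45.6 to 94.2 in wild-type LE and 4404.5 to 5969 in E-OEX GE. In wild-type LE the mean shares of the wild-type GE mean were 0.300% for Wfdc3, 0.436% for Foxa2, 0.607% for Lif and 0.168% for Cxcl15. The GE means behind these shares were lower in E-OEX than in wild type for Lif (838 and 6399.7) and Cxcl15 (1647 and 4385), which raises their percentages in E-OEX, but close for Foxa2 (2265 and 2364). In bulk tissue, a change in the number of gland cells and a change in RNA per cell cannot be told apart, and the part of gland cells in the Wfdc3 values was not tested.

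**Figure D3:**
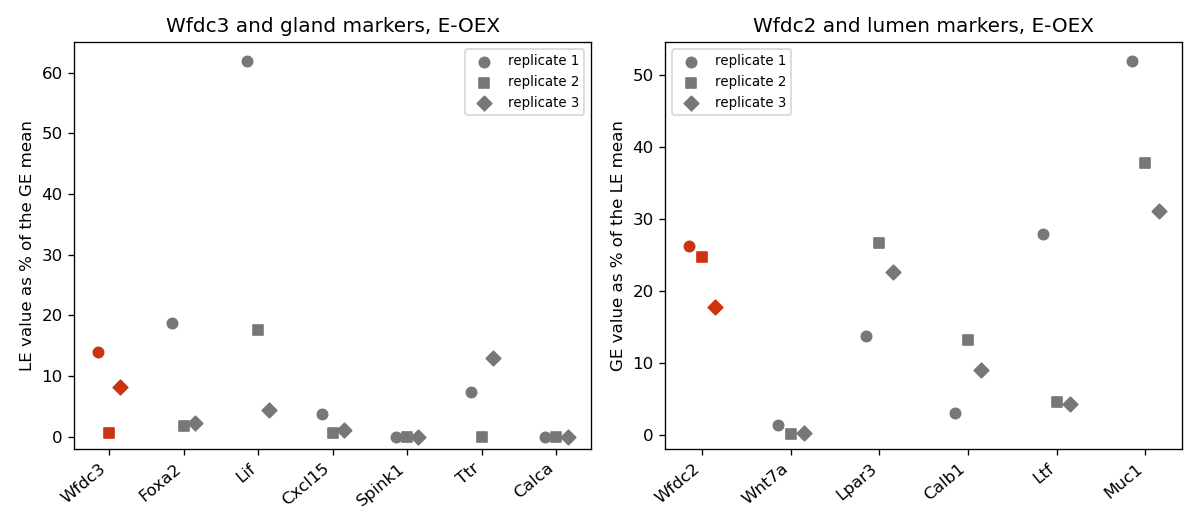
E-OEX libraries: on the left the LE value of Wfdc3 (red) and gland markers (grey) as a percent of the gene's GE mean, on the right the GE value of Wfdc2 (red) and lumen markers (grey) as a percent of the gene's LE mean. Each symbol is 1 library (circle, square and diamond for replicates 1 to 3); Wfdc3 spans 0.697% to 14.1% and Wfdc2 17.7% to 26.3%.

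In glandular epithelium the positions of the 2 genes were exchanged, with Wfdc2 higher in E-OEX and Wfdc3 at overlapping levels. After rescaling together, Wfdc2 averaged 4991 ± 1416 in E-OEX GE and 1369.8 ± 161 in wild-type GE (SD, n = 3 each), a log2 difference of 1.83 (SE 0.27). Each E-OEX value of Wfdc2 (4363 to 6466 as deposited) was above each wild-type value (1069 to 1249.6). Wfdc3 averaged 1931 ± 788 in E-OEX and 2255 ± 125 in wild type (SD, n = 3 each), a log2 difference of -0.30 (SE 0.29) whose sign turned on the deposited scale (0.17) and after quantile normalization (0.091). The median of the 2851 genes tested was 0.0498 here and 0.50 on the deposited scale. Wfdc2 was 2.29 on the deposited scale, so its distance from the median of all genes changed little.

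Markers of luminal cells were also measured in these GE libraries. As a percent of the E-OEX LE mean, Wfdc2 was 26.3, 24.6 and 17.7 in E-OEX GE replicates 1 to 3, against a mean of 4.97% in wild type. Wnt7a, a signalling protein of luminal cells, was 1.39, 0.0333 and 0.190, against 0.183% in wild type, so Wfdc2 was far above it in every E-OEX GE library. Lpar3, a lipid receptor of the luminal epithelium, was 13.7, 26.6 and 22.6, against 3.28% in wild type, 1 value below, 1 within and 1 above the range of Wfdc2. The calcium-binding protein gene Calb1 was 3.01, 13.2 and 8.97, against 1.13%. These percentages depend on the LE mean as well: from wild type to E-OEX the LE mean of Lpar3 went from 6812 to 1677 and that of Calb1 from 32861 to 5064, while their GE means were 223 and 351, and 369.7 and 425. For Wfdc2 the LE means were close (22833 and 24629), and the GE mean was the one that differed (1135 and 5631). The lactoferrin gene Ltf went the other way, at 27.9, 4.48 and 4.28, against 39.4% in wild type. Its LE mean went from 1136 in wild type to 24428 in E-OEX, and its GE mean from 447 to 2985. The mucin gene Muc1, which the wild-type tables do not list, was 51.9, 37.8 and 31.1. The lumen markers therefore did not share a single percentage. Over the 4 lumen markers that every table lists, the sum was 1885 to 7244 in E-OEX GE and 805 to 1329 in wild-type GE. Ltf alone was 1045.5 to 6814 in E-OEX GE and 416 to 496 in wild-type GE, so it held much of the E-OEX sum. Every table also lists 2 general epithelial markers, Krt19 and Cdh1. From wild type to E-OEX the Krt19 mean went from 1726.5 to 9702 in GE and from 18175 to 26336 in LE. A GE rise was thus not particular to Wfdc2. The Cdh1 mean went from 8175 to 6678 in GE and from 20391 to 15388 in LE. The 6 stromal markers listed in every table summed to 58802 to 69929 in E-OEX GE and 27110 to 78415 in wild-type GE, and the 5 smooth muscle markers to 14150 to 17496 and 2734 to 4878. The part of these cells in the Wfdc2 values was not tested.

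In U-OEx mice the luminal epithelium had less Wfdc2 and more Wfdc3 than in wild type. Wfdc2 was 8797, 11589.8 and 8209 in the 3 libraries, a mean of 9532 ± 1806 (SD, n = 3). Wfdc3 was 52.4, 28.4 and 57.6 (57, 32 and 60 reads), a mean of 46.1 ± 15.6 (SD, n = 3). Neither gene's values overlapped with those of wild-type LE. On the rescaled reads the U-OEx minus wild-type log2 difference was -1.29 for Wfdc2 (SE 0.21) and 2.81 for Wfdc3 (SE 0.51), against a median of 0.089 over 5949 genes. The Wfdc2 difference was -0.077 after quantile normalization, which therefore removed most of it, whereas leaving out any 1 library kept it between -1.38 and -1.12. Foxa2 stood at 677, 471 and 441 in U-OEx LE and at 4.10 to 14.5 in wild-type LE. The same 6 gland markers summed to 1011 to 1388.5 in U-OEx LE, with Spink1, Ttr and Calca at 3 reads or fewer in each library. The part of gland cells in the U-OEx Wfdc3 values was not tested. Lumen markers differed too between wild-type and U-OEx LE, as deposited means. Wnt7a went from 3841 to 1911, Lpar3 from 6812 to 266 and Calb1 from 32861 to 238, whereas Ltf went from 1136 to 105550. Of the epithelial markers listed in both, Cdh1 went from 20391 to 7449 and Epcam from 11565 to 7020, and Krt19 was 18175 and 20173. The part of cell composition in the U-OEx Wfdc2 values was not tested.

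Compared directly in luminal epithelium, U-OEx was lower than E-OEX for Wfdc2, with a log2 difference of -1.51 (SE 0.30) and no overlap. For Wfdc3 the difference was -1.24 (SE 0.93), and the values overlapped, since the lowest E-OEX library (15.4) was below all of the U-OEx libraries. That difference ranged from -2.49 without E-OEX LE replicate 2 to -0.48 without E-OEX LE replicate 1. The median over 4275 genes was 0.061. The comparisons of E-OEX LE and of U-OEx LE with wild type share the wild-type LE libraries and are not independent of each other.

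On a scale common to all 15 libraries, the order of Wfdc2 was wild-type LE (31387), E-OEX LE (30004), U-OEx LE (12565), E-OEX GE (3557) and wild-type GE (938), as means. Wild-type and E-OEX LE overlapped and differed by less than 1 SD, and their order was the opposite on the deposited scale. The remaining neighbours in this order did not overlap. The order of Wfdc3 was wild-type GE (1543), E-OEX GE (1375), E-OEX LE (204), U-OEx LE (60.2) and wild-type LE (7.88). The 2 GE groups overlapped and exchanged places on the deposited scale, E-OEX LE overlapped with U-OEx LE, and the other neighbours did not overlap.

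Per kilobase of exon, the ratio of Wfdc2 to Wfdc3 within a library does not depend on how that library was scaled. It was 11616, 7040 and 10335 in wild-type LE and 1.49, 1.31 and 1.24 in wild-type GE. In wild-type GE the order of the pair depends on the length used. Wfdc3 had more reads there (1912, 1935 and 2214) than Wfdc2 (1284, 1145 and 1236), and the ratio divides by all annotated exon bases (2530 and 1140). The length of the transcripts expressed was not measured. It was 175, 3087 and 342 in E-OEX LE and 9.69, 4.21 and 4.93 in E-OEX GE. In U-OEx LE it was 373, 904.5 and 316. Every E-OEX LE and U-OEx LE ratio was below every wild-type LE ratio, and every E-OEX GE ratio was above every wild-type GE ratio.

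Ranks per kilobase were taken among the 2665 genes that all tables list and that have a length in the annotation. These genes were selected for a difference between the epithelia, so abundant genes alike in LE and GE are left out. Within this set Wfdc2 ranked 3 in each wild-type LE library, 1 to 2 in E-OEX LE and 5 to 10 in U-OEx LE. In the GE libraries, which also held stromal markers, Wfdc2 ranked 73 to 97 in wild type and 12 to 23 in E-OEX. Wfdc3 ranked 110 to 120 in wild-type GE and 81 to 143 in E-OEX GE. In LE it ranked 1699 to 1847 in wild type, 487, 1424 and 619 in E-OEX replicates 1 to 3, and 1036 to 1267 in U-OEx, so E-OEX replicate 2 fell between the wild-type and the other E-OEX libraries.

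The genes with the pattern most like each gene over the 15 libraries were found by Pearson r on log2 values of the common scale. They were sought among 2492 genes with a mean of at least 10. The libraries share 5 groups and the genes were selected for a difference between epithelia, so these r values are a description. For Wfdc2 they were Crip1 (r = 0.988), which encodes a small zinc-binding LIM protein, Junos (0.980), the homeobox gene Barx2 (0.974), the stress kinase gene Mapk12 (0.974) and the peptide transporter gene Slc15a1 (0.973). For Wfdc3 they were Plod1 (0.965), a collagen-modifying enzyme gene, the calcium pump gene Atp2a3 (0.954), C1qtnf6 (0.947), Gucy1b1 (0.919), a subunit of soluble guanylate cyclase, and the protocadherin gene Pcdh11x (0.914). Wfdc2 and Wfdc3 had an r of -0.815 with each other.

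The rest of the family is a list of 21 other genes, of which few are listed in the wild-type and E-OEX tables. In the wild-type comparison of epithelia 6 were tested, with 1 higher and 4 lower in GE by limma, beside 97.0% of all genes called (56.6% higher and 40.5% lower). Wfdc15b was higher (log2 difference 5.44), in the direction seen for Wfdc3. Wfdc13 (-6.31), Wfdc8 (-3.80) and Eppin (-3.58), an epididymal protease inhibitor gene, were lower, and Wfdc6a was at least 21.3-fold lower, its GE libraries holding 3 reads or fewer each. Each wild-type GE library held at most 7 reads of Wfdc13 and 4 of Wfdc8. In E-OEX 7 were tested, beside 91.6% of all genes called (61.5% higher and 30.1% lower), with Wfdc1 (3.87), Wfikkn2 (2.91) and Wfdc15b (1.67) higher in GE, and Slpi (-2.51) and Wfdc8 (-1.38) lower. Wfdc18, at 229, 4.54 and 28.1 in the E-OEX LE libraries and at most 2 reads in each E-OEX GE library, was also lower. Its mean fold, against a floor of 3 reads per library, was at least 28.3 with all LE libraries and at least 5.28 without E-OEX LE replicate 1. The E-OEX calls of Slpi, Wfdc8 and Wfdc18 were each lost when 1 of several single libraries was left out (highest limma adjusted p = 0.122, 0.0996 and 0.0638), and that of Wfdc15b in edgeR (adjusted p = 0.0722). The median log2 difference of the tested family genes was -3.69 in wild type and -1.30 in E-OEX, beside 1.36 and 1.75 for all genes.

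**Figure D4:**
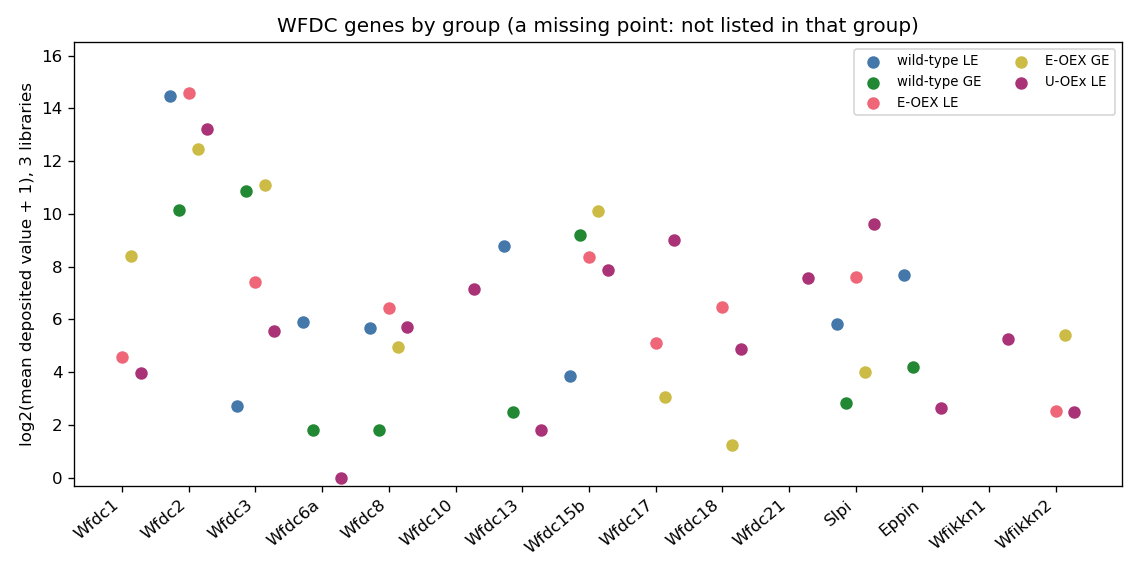
Level of each family gene with a group mean of at least 10, as log2 of the mean deposited value of 3 libraries plus 1 (vertical axis), by group; a missing point means that the group's tables do not list the gene, and no error is drawn. Wfdc2 is the highest of the family in the LE groups and in E-OEX GE, and Wfdc3 (1870.1) is above it (1135) in wild-type GE. Wfdc15b is lowest in wild-type LE (13.6), as Wfdc3 is (5.60).

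Wfdc15b, like Wfdc3, was at its lowest in wild-type LE. Its mean was 13.6 ± 5.97 there, 329 ± 48.2 in E-OEX LE and 235 ± 112 in U-OEx LE, and in GE it was 589.5 ± 29.4 in wild type and 1097 ± 434 in E-OEX (SD, n = 3 each). Of 3 family genes tested in E-OEX against wild-type LE, Wfdc15b rose by 4.42 on the log2 scale (SE 0.58, adjusted p = 0.00265 in limma), and Wfdc8 (0.58) and Slpi (1.43) did not pass. Over all genes 10.7% were called in that comparison, 5.12% higher and 5.54% lower. The 3 E-OEX LE values of Wfdc15b lay close together (278, 333 and 375), whereas those of Wfdc3 ran from 15.4 to 311. In GE, of the same 3 genes, Wfdc8 rose from 2.49 to 30.2 as deposited means (2.79 on the log2 scale, SE 0.47, adjusted p = 0.00261 in limma). Each wild-type GE library held at most 4 reads of Wfdc8, so the size depends on the added pseudocount. Wfdc15b (0.36) and Slpi (0.79) did not pass, beside 23.5% called over all genes (9.72% higher and 13.8% lower). The difference between E-OEX and wild type in Wfdc15b differed between GE and LE by -3.76 (SE 0.57, limma adjusted p = 0.00166).

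U-OEx luminal epithelium showed changes in both directions within the family. Of 6 genes tested against wild type 2 rose and 3 fell, beside 56.9% of all genes called (29.1% higher and 27.8% lower). Slpi, an inhibitor of neutrophil elastase, rose by 4.56 on the log2 scale (SE 1.005, adjusted p = 0.00538 in limma) and Wfdc15b by 3.99 (SE 0.51, adjusted p = 0.000354). Wfdc13 fell from 446 ± 107 to 2.48 as means (-7.10 on the log2 scale, SE 0.49, adjusted p = 1.95e-05 in limma), and Eppin fell from 206 ± 35.6 to 5.21 (-5.36, SE 0.63, adjusted p = 0.000217). Each U-OEx LE library held at most 4 reads of Wfdc13 and 9 of Eppin, so both sizes depend on the added pseudocount. Wfdc6a had no reads in U-OEx LE and was at least 22.1-fold lower. Slpi was 861, 376 and 1121 in U-OEx LE replicates 1 to 3, lowest in replicate 2. The 9 immune markers, all listed in the U-OEx tables, summed to 3316 to 30105 in U-OEx LE, with the neutrophil gene S100a8 at 6694, 456 and 10773 and so also lowest in replicate 2. The part of immune cells in the Slpi values was not tested. Between U-OEx and E-OEX LE, 0 of 7 family genes passed in limma and 0 in edgeR, with 2 at an unadjusted p-value under 0.05 in limma, beside 15.0% of all genes called (6.97% higher and 8.05% lower).

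A list of 38 other secreted protease inhibitor genes gave a wider view of the class. In the wild-type comparison 16 rose and 8 fell in GE among 24 tested, beside 97.0% of all genes called (56.6% higher and 40.5% lower). In E-OEX 13 rose and 4 fell among 17, beside 91.6% (61.5% higher and 30.1% lower). In E-OEX against wild-type LE 11 were tested, beside 10.7% of all genes called (5.54% lower), and Serpina1e, an alpha-1-antitrypsin gene, fell (log2 difference -3.93, limma adjusted p = 0.0120). That call was lost when wild-type LE replicate 3, E-OEX LE replicate 1 or E-OEX LE replicate 2 was left out (-3.93, -3.54 and -3.36, limma adjusted p = 0.0510, 0.0646 and 0.0569). In GE 4 of 12 fell and the others did not pass, beside 23.5% of all genes called (13.8% lower). These were Spink1 (-7.55), a trypsin inhibitor of glands, the metalloprotease inhibitor gene Timp4 (-3.06), Serpina3n (-2.84) and Tfpi2 (-2.13), and the Timp4 call was lost without wild-type GE replicate 1 (limma adjusted p = 0.0741). Wfdc3, which is also high in the GE libraries, had overlapping values in the same comparison. The median of the 12 genes was -0.31, beside 0.05 over all genes.

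In U-OEx against wild-type LE 7 of 22 inhibitors rose and 6 fell, close to the shares over all genes (29.1% higher and 27.8% lower). Serpinb11 rose by 10.76 on the log2 scale (SE 0.70, limma adjusted p = 1.62e-05). Each wild-type LE library held at most 6 reads of Serpinb11, so the size depends on the added pseudocount. Serpinb2 was at least 5.87-fold and Ambp at least 7.89-fold higher, the wild-type libraries holding at most 2 reads of either. The bound for Ambp was 5.12 without U-OEx LE replicate 3. The alpha-1-antitrypsin genes Serpina1b (-5.93), Serpina1e (-5.25) and Serpina1a (-3.98) fell. These are near-identical copies among which reads may be split. The Serpina1a call was lost without U-OEx LE replicate 1 (limma adjusted p = 0.0522). Each U-OEx LE library held at most 6 reads of Serpina1b and 7 of Serpina1a. Between U-OEx and E-OEX LE 1 of 13 inhibitors rose and 2 fell, beside 6.97% and 8.05% of all genes.

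RefSeq places 67 genes within 500 kb of either gene. Between the epithelia in wild type, 5 of 15 tested neighbours were higher and 9 lower in GE, beside 97.0% of all genes called (56.6% higher and 40.5% lower). In E-OEX 3 of 10 were higher and 7 lower, beside 91.6% (61.5% higher and 30.1% lower). In E-OEX against wild type, 1 of 8 tested neighbours was called in LE (Wfdc15b, higher) and 1 of 7 in GE (Wfdc8, higher), beside 10.7% and 23.5% of all genes. In U-OEx against wild-type LE 6 of 15 rose and 5 fell, beside 29.1% and 27.8% of all genes. The largest differences there were those of Mmp9 (log2 difference 10.47), a matrix metalloprotease gene, Cd40 (8.21), a receptor gene of antigen-presenting cells, Wfdc13, Wfdc6a, Eppin and Slpi.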

How the data were processed

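The aligner, the counting tool, the annotation, the strandedness and the scaling method are not given in the sources used here. Per the labels' protocols, total RNA was made into libraries with NEBNext Ultra reagents, and the submitters' processing notes name the builds GRCm38 and mm10. The authors' deposited values are handled as a signal: read counts divided by 1 factor per library. Reads were recovered by dividing by the factor, and 100% of values in every library came out within 0.01 of whole. The factors had a geometric mean of 1.01 over the wild-type, 1.01 over the E-OEX and 1.08 over the U-OEx libraries.

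Groups came from the sample titles. Comparisons of epithelia and their difference between genotypes used deposited values. For comparisons between genotypes, recovered reads of shared genes were rescaled with TMM (edgeR 4.0.16). The test was limma 3.58.1 (R 4.3.3, mean-variance trend) on log2(value + 1), for genes whose mean was at least 1, with Benjamini-Hochberg adjustment over all genes and a threshold of 0.05. Its code was tested on simulated data. For the folds given as "at least", a group with at most 3 reads in every library was set to that floor. The limma fits used no floor. Replicates differed by more than sampling noise, with a chi-square per degree of freedom of 16.6 to 182.

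Wfdc2, Wfdc3 and the gene lists were chosen with earlier results of these data known. Of the family, genes called in a comparison were named. Called protease inhibitors were named for E-OEX against wild type and for the interaction, and only some of them for U-OEx against wild-type LE. They were counted without names in the comparisons of epithelia and of U-OEx with E-OEX. The 6 largest differences among neighbours and the 5 genes most like each member were also named. Alternatives were a pseudocount of 0.1, no filter, quantile normalization, edgeR on recovered reads, the deposited scale, a replicate block and leaving out each library. Genes absent from a table were not analysed there, and 1 lumen marker is not reported here.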

Additional observations from a re-analysis of the deposited data

Results flagged for a closer look

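For 6 genes the E-OEX minus wild-type difference itself differed between GE and LE in limma's interaction test, given as the GE value minus the LE value on the log2 scale. It was -3.76 for Wfdc15b (adjusted p = 0.00166), which rose in E-OEX LE and not in E-OEX GE. It was 2.33 for the neighbouring gene Gm14317 (limma adjusted p = 0.0329). Among protease inhibitors it was 3.02 for Tfpi (limma adjusted p = 0.0421), 3.26 for Itih5 (limma adjusted p = 0.0158), 4.07 for Pi15 (limma adjusted p = 0.0455) and 4.10 for Serpina1e (limma adjusted p = 0.0310). Itih5, Pi15 and Tfpi had at most 2 reads in each E-OEX LE library, so their values depend on the added pseudocount. With each of the 12 libraries left out in turn, the limma call of Wfdc15b was never lost, and that of Itih5 was lost without wild-type GE replicate 3 or E-OEX GE replicate 3 (highest adjusted p = 0.0591). The calls of Serpina1e, Gm14317, Tfpi and Pi15 were lost in 8, 9, 10 and 11 of these 12 fits (highest limma adjusted p = 0.0831, 0.0842, 0.109 and 0.116). With all libraries, those of Serpina1e and Gm14317 were also lost in edgeR (adjusted p = 0.0989 and 0.0726) and in limma after quantile normalization (adjusted p = 0.0584 and 0.126). Groups of 3 libraries were not examined for outlying samples.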

How the results depend on the processing

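The Wfdc2 and Wfdc3 differences kept their direction and moved by less than the replicate SD in 147 of their alternatives, moved further in 9 and reversed in 4. Quantile normalization gave Wfdc2 -3.90 (wild-type GE minus LE), -2.84 (E-OEX GE minus LE), 0.73 (E-OEX minus wild type in LE, reversed), 2.19 (in GE), -0.077 (U-OEx minus wild type) and 1.32 (difference of the gaps), and Wfdc3 0.091 in E-OEX minus wild-type GE, reversed. edgeR gave Wfdc2 -4.56 and -2.84 for GE minus LE in wild type and E-OEX. The deposited scale gave Wfdc2 0.11 in LE (reversed) and 2.29 in GE, and Wfdc3 0.17 in GE (reversed). The cause was not tested. Leaving out 1 library moved the Wfdc3 difference of the gaps between -5.05 and -2.93.

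Counts of genes called over all genes ranged, with 1 library left out, from 56 (wild-type LE replicate 3) to 322 for E-OEX minus wild type in LE (62, 76 and 117 without E-OEX LE replicates 2 and 1 and wild-type LE replicate 2), from 362 (wild-type GE replicate 1) to 728 in GE (430 without wild-type GE replicate 3), from 60 (U-OEx LE replicate 1) to 904 for U-OEx minus E-OEX (97, 334, 340 and 353 without U-OEx LE replicate 3, E-OEX LE replicates 3 and 2 and U-OEx LE replicate 2) and from 179 (wild-type GE replicate 3) to 449 for the interaction (192 to 209 without wild-type LE replicate 3, wild-type GE replicate 1 or 2, or E-OEX GE replicate 2 or 3). E-OEX minus wild type in GE had 41.3% of its calls higher, against 71.6% on the deposited scale, and in LE 48.0% against 58.6%. Quantile normalization moved the share higher in GE from 58.3% to 49.8% in wild type and from 67.2% to 46.2% in E-OEX, and that of the interaction from 54.3% to 42.9%. The sample titles do not say whether same-numbered samples were paired. Deviations of same-numbered libraries correlated between -0.284 and 0.188 over 18 pairs, which include pairs from different genotypes. Between LE and GE they correlated between -0.00629 and 0.0947 in wild type and between -0.119 and 0.143 in E-OEX. Such correlations cannot decide whether an LE and a GE sample came from the same animal. With a replicate block, calls were 6187, 4374, 292, 718, 3182, 612 and 314 for wild-type GE minus LE, E-OEX GE minus LE, E-OEX minus wild type in LE and in GE, U-OEx minus wild type, U-OEx minus E-OEX and the interaction, against 6223, 4491, 277, 670, 3384, 642 and 315 without it. The alternatives were also run for 88 results of called list genes and of the neighbours Mmp9, Cd40 and Gm14317. Of these results, 59 kept their call in every alternative run, 29 lost it in at least 1 and 0 reversed.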

Other observations

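Some family genes are listed only in tables that allow no comparison with wild type. Wfdc21 had scaled read counts of 197, 14.2 and 358 in U-OEx LE replicates 1 to 3. Wfdc10 had 92.8, 187 and 141 there. Wfdc17 was 589, 53.3 and 918 in U-OEx LE, 82.2, 11.8 and 6.48 in E-OEX LE and 5.62 to 11.0 in E-OEX GE. Wfdc17 and Wfdc21, like S100a8, were lowest in U-OEx LE replicate 2, whereas Wfdc10 was highest in it.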
